A study of Mus musculus with 374 samples.

Results

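The 10 genes Cxcr2, Cxcr4, Ccr1, Ccr7, Ccr9, Fpr1, Fpr2, C5ar1, S1pr1 and S1pr4, which encode receptors for chemoattractants and for exit from tissue, were chosen by name, without a threshold on their counts, and followed across single mouse blood cells. The choice was made with earlier results of these data known. Of the 10 genes, 9 were measured, among 19829 mouse genes in the count table and over 374 wells, and Ccr9 was not analysed here. The cells came from 1 C57BL/6 female of 10 to 13 weeks, and each was deposited by index sorting into a well of 1 plate, so that antibody fluorescence was recorded for every cell. B lymphocytes (B220+, low FSC-A, 44 wells), granulocytes (Mac1+ Gr1+, 96 wells), erythroblasts (Ter119+ CD44+, mid or high FSC-A, 96 wells) and progenitor/stem cells (Lin- Kit+ Sca1+, called LSK, 95 wells) came from bone marrow, and T lymphocytes (CD3+, low FSC-A, 43 wells) from thymus. No cell was treated, and all 5 populations shared the animal, the plate and an adapted CEL-seq2 protocol that counts molecules by unique molecular identifiers (UMIs).

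All of these receptors are membrane proteins of the G protein-coupled family that steer moving leukocytes. Receptors for chemokines (Cxcr2, Cxcr4, Ccr1, Ccr7), for formylated peptides (Fpr1, Fpr2) and for complement fragment C5a (C5ar1) pull cells toward the source of their ligand. Receptors for sphingosine 1-phosphate (S1pr1, S1pr4) sense a lipid that is abundant in blood and lymph, and S1pr1 is known for the exit of lymphocytes from thymus, lymph node and bone marrow, whereas Cxcr4 holds cells in the marrow.

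Levels are given as summed UMIs of a population and as CPM, the UMIs of a gene per 1000000 UMIs on mouse genes. The sums behind them were 135808 UMIs for B lymphocytes, 200396 for T lymphocytes, 403506 for granulocytes, 666728 for erythroblasts and 834812 for LSK cells, with medians of 3028.5 to 7959 UMIs per well. Each population is 1 sample of 1 animal, so no test between populations was possible. All intervals are 95% exact intervals that cover counting error only. Each population held UMIs of all its own markers, from 6 of 6 in LSK cells to 8 of 8 in T lymphocytes and granulocytes. The B lymphocyte well A8 stood apart, with bright Gr1 fluorescence and 11.5% of its UMIs on granulocyte markers, and well B2 had bright CD3 fluorescence. Values to which well A8 gave most UMIs are given with and without it. Outside the granulocytes, markers of monocytes, eosinophils, basophils, plasmacytoid dendritic cells and natural killer cells took at most 0.195% of the UMIs of a well, and within them at most 0.682%, for the plasmacytoid markers. Granulocyte markers in the other populations reached 4.41% of the granulocyte level in B lymphocytes (1.96% without well A8), 2.41% in T lymphocytes, 1.51% in LSK cells and 1.13% in erythroblasts, and the UMIs of a granulocyte receptor that these percentages would give are called its carry-over level. For Ccr7 and S1pr1, highest in T lymphocytes, the level of the T lymphocyte markers was used instead, 1.86% in B lymphocytes and 1.21% in LSK cells.

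Counts of 5 of the 9 receptors were concentrated in granulocytes. Cxcr2, Ccr1, Fpr1, Fpr2 and C5ar1 were each at least 40 times as high there as in the other wells pooled. A gene was called higher in a population when its CPM was 4-fold or more that of the other 4 populations summed, with sums under 3 UMIs set to 3, and when it had more than 3 UMIs in that population. By this call, 5 of 9 receptors were higher in granulocytes, against 5.66% of the 11667 genes with 10 or more UMIs. The count was 2 of 9 in T lymphocytes (4.17% of all genes) and 1 of 9 in B lymphocytes (2.57% of all genes). No receptor was called in erythroblasts (5.58% of all genes) or in LSK cells (12.2% of all genes). The median log2 ratio of the 9 receptors in granulocytes was 5.34, beside -0.48 for all genes tested, and it was -3.57 in LSK cells, beside 0.61.

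**Figure D1:**
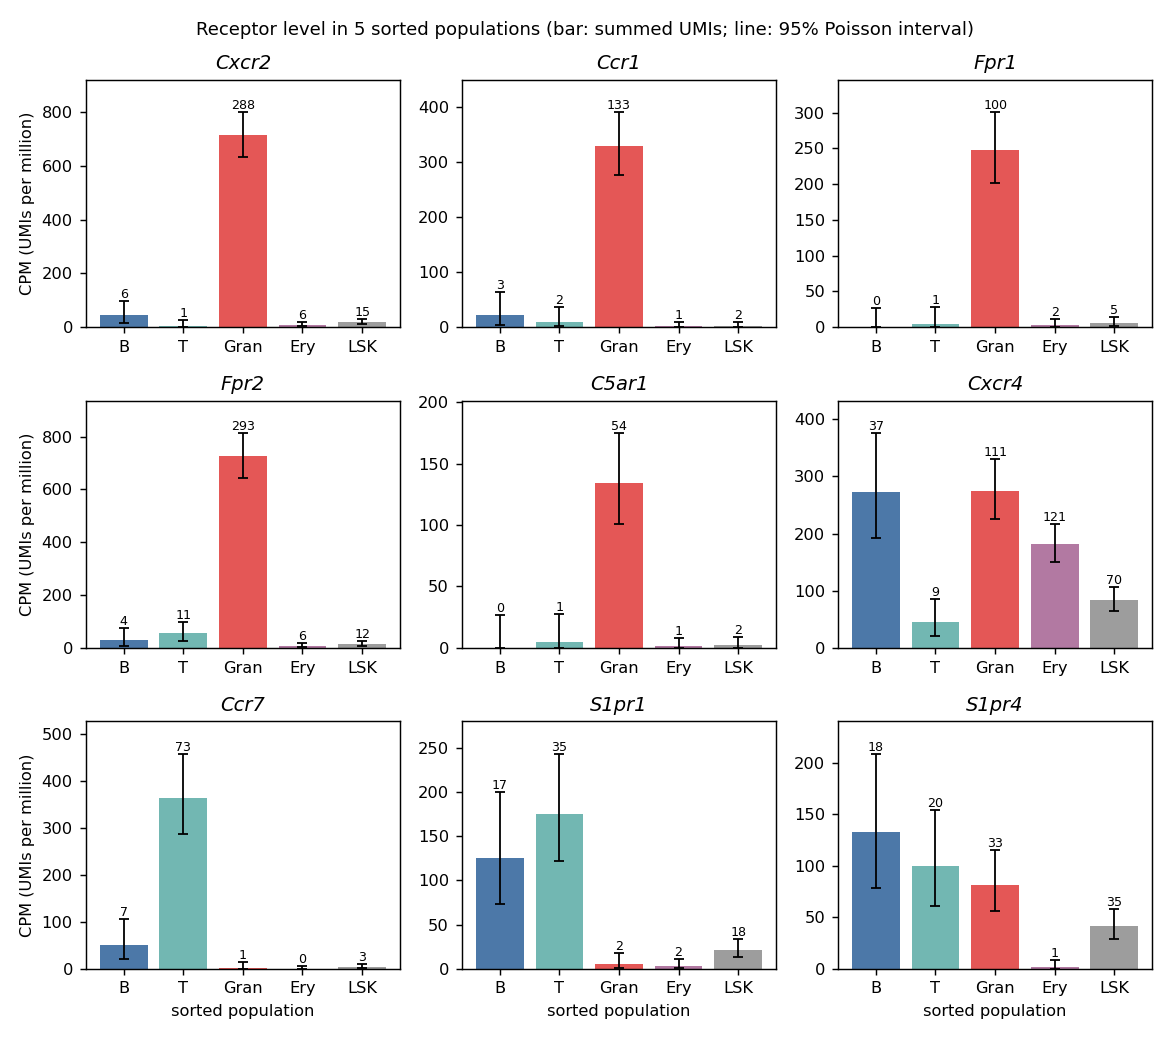
Level of each of the 9 measured receptors (y axis, CPM) in the 5 sorted populations (x axis). Bars show summed UMIs as CPM, the number above a bar is its UMI sum, and lines are 95% Poisson intervals. The first 5 panels have a single tall granulocyte bar, Ccr7 has a T lymphocyte bar of 364 CPM, and Cxcr4 and S1pr4 are spread over 4 or more populations.

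Cxcr2 (ENSMUSG00000026180, chr1:74153989-74161246, plus strand, GRCm38) is the neutrophil receptor for the chemokines Cxcl1, Cxcl2 and Cxcl5 and draws these cells from the marrow into blood. Its sums were 288 UMIs in granulocytes, 15 in LSK cells, 6 in B lymphocytes, 6 in erythroblasts and 1 in T lymphocytes. That is 714 CPM in granulocytes (interval 634 to 801), and 44.2, 18, 9 and 4.99 CPM in B lymphocytes, LSK cells, erythroblasts and T lymphocytes. Granulocytes stood apart from all 4 others, at 46.8-fold over the remaining wells (31.7 to 71.8), and neighbours in the order of the low 4 did not differ beyond counting error. B lymphocytes, well A8 included, did exceed erythroblasts by 4.91 (1.31 to 18.4) and T lymphocytes by 8.85 (1.07 to 407). Well A8 held 4 of the 6 UMIs of B lymphocytes, which stood at 15.2 CPM without it. The carry-over level would give 9 UMIs in LSK cells and 5.4 in erythroblasts, near the counts seen. Among the 96 granulocyte wells the count ran from 0 to 14 UMIs with a median of 2, and 67 wells (69.8%) had at least 1.

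Ccr1 (ENSMUSG00000025804, chr9:123962124-123968692, minus strand) binds inflammatory CC chemokines such as Ccl3 and Ccl5. It had 133 UMIs in granulocytes, 3 in B lymphocytes, 2 in T lymphocytes, 2 in LSK cells and 1 in erythroblasts. The granulocyte level was 330 CPM (276 to 391), or 75.7-fold over the others (37.3 to 179). Outside granulocytes all sums were at or under 3 UMIs, and 2 of the 3 in B lymphocytes lay in well A8, which left 7.62 of their 22.1 CPM. Granulocyte wells held 0 to 10 UMIs with a median of 1, and 61 of 96 had at least 1.

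C5ar1 (ENSMUSG00000049130, chr7:16246743-16259540, minus strand), the receptor through which C5a activates neutrophils, was the least counted of the 5. It had 54 UMIs in granulocytes (134 CPM, 101 to 175), 2 in LSK cells, 1 each in T lymphocytes and erythroblasts, and 0 in B lymphocytes, with an interval up to 27.2 CPM. The granulocyte level was 61.5-fold over the others (22.7 to 234). A UMI was found in 39 of 96 granulocyte wells, 28 of which had exactly 1, so that wells without one cannot be read as cells without the receptor.

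Fpr1 and Fpr2 sense formylated peptides released by bacteria and damaged mitochondria, and Fpr2 also binds other peptides and lipids. The genes lie side by side on chromosome 17 and are read away from each other, Fpr1 (ENSMUSG00000045551, chr17:17876471-17883940) from the minus strand and Fpr2 (ENSMUSG00000052270, chr17:17887824-17893952) from the plus strand, with 3884 bases between their starts. Fpr1 had 100 UMIs in granulocytes (248 CPM, 202 to 301), 5 in LSK cells, 2 in erythroblasts, 1 in T lymphocytes and 0 in B lymphocytes. Fpr2 had 293 UMIs in granulocytes (726 CPM, 645 to 814), 12 in LSK cells, 11 in T lymphocytes, 6 in erythroblasts and 4 in B lymphocytes. Both were low outside granulocytes, with folds over the other wells of 56.9 for Fpr1 (27.8 to 135) and 40.4 for Fpr2 (28.2 to 59.9). The 11 T lymphocyte UMIs of Fpr2 lay in 9 of 43 wells and exceeded the 3.5 that the carry-over level gives. Exons of Fpr2 overlap those annotated for Fpr3, so its count is uncertain by the reads the pair may share.

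The start regions of this gene pair and of Cxcr2 are shown because the 3 genes shared their population but not their motif content. The sequences come from the RefSeq promoter table of GRCm38.p6, 250 bases before to 50 after the start, 5′ to 3′ on the strand of the gene, at chr17:17883890-17884189 for Fpr1, chr17:17887574-17887873 for Fpr2 and chr1:74153744-74154043 for Cxcr2. Capitals mark matches on either strand to TTNNGNAA, a form of the C/EBP motif of myeloid genes, and, in Fpr2 only, to AGATAA, the GATA motif, which lies farthest from the start.
Fpr1: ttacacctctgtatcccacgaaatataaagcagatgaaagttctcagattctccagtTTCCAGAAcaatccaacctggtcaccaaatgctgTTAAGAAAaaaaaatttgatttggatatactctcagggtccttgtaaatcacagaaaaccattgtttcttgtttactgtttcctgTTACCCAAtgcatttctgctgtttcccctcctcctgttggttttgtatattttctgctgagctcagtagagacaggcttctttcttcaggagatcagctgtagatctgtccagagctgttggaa
Fpr2: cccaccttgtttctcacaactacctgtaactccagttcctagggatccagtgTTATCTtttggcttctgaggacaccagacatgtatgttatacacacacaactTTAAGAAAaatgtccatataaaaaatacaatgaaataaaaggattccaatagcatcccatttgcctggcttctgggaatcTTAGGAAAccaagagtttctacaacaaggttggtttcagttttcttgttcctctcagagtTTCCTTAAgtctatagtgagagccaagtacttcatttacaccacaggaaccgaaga
Cxcr2: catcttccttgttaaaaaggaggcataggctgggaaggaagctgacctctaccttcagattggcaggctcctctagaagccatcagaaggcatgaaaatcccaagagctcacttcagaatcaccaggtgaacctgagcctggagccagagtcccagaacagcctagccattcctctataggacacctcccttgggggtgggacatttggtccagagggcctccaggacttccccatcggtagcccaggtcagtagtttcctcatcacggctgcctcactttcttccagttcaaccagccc
Fpr1 and Fpr2 each held 3 C/EBP matches, Ccr1, C5ar1 and Cxcr4 held 1 each, and Cxcr2 and S1pr4 held 0, where 40.7% of 27025 promoters hold at least 1. GAGGAAG, a PU.1 motif, was in none of these 7 promoters and is in 13.5% of all, and AGATAA is in 11.4%. No promoter of Ccr7 or S1pr1 was used here. A match is a run of letters and was not tied to binding.

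In most granulocyte wells several of the 5 receptors were counted together. Summed, they gave 868 UMIs in granulocytes, 2151 CPM (2010 to 2299), and at least 1 UMI in 89 of 96 wells. The sum was 95.7 CPM in B lymphocytes, 79.8 in T lymphocytes, 43.1 in LSK cells and 24 in erythroblasts. Of the 13 UMIs in B lymphocytes, 7 were in well A8, and the sum was 45.7 CPM without it. All 5 were seen in 16 granulocyte wells, 4 of them in 27, 3 in 19, 2 in 22, 1 in 5 and none in 7. Wells with 3 or more did not have higher depth, at medians of 3006 to 3640 UMIs, than wells with none, 1 or 2, at 4102 to 5483. Cxcr2 and Fpr2 shared 58 wells, with 9 wells of Cxcr2 alone and 20 of Fpr2 alone. The neighbours Fpr1 and Fpr2 shared 44 wells, and 5 of the 49 wells with Fpr1 lacked Fpr2. Fpr2 had a UMI in 78 of all 96 wells, and whether these overlaps exceed those of unlinked genes was not tested.

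**Figure D2:**
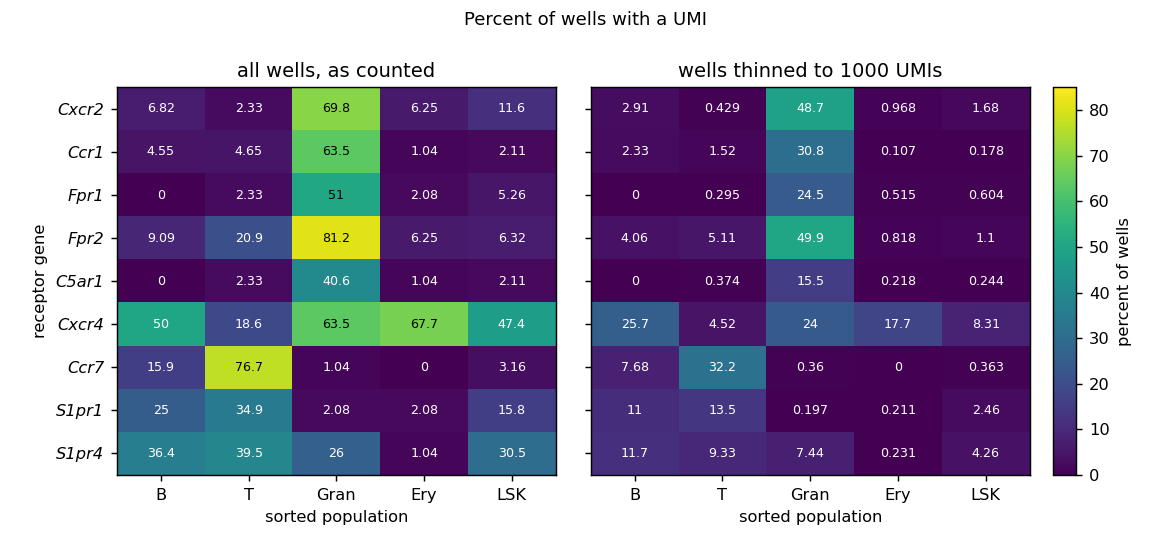
Percent of wells with at least 1 UMI of each receptor (rows) in each population (columns), as counted and after thinning every well to 1000 UMIs. Colour and printed numbers give the percent; granulocytes lead for 5 receptors on both scales, from 49.9% of thinned wells for Fpr2 to 15.5% for C5ar1, and the Cxcr4 share in erythroblasts drops from 67.7% to 17.7%.

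Granulocytes also held cells with transcripts of another myeloid type. Of the monocyte and macrophage markers Csf1r, Ms4a6c, F13a1, Adgre1 and Cx3cr1, the first 4 were measured, and their sum was 902 CPM in granulocytes against 80.3 or less elsewhere. The 35 wells with a UMI of these 4 markers held 41.2% of granulocyte UMIs and 27.6% (Fpr2) to 39.1% (Ccr1) of those of each of 7 receptors, with 32.6% for Cxcr2. A narrower set of wells divided the receptors more. Ccr2, the chemokine receptor by which monocytes leave the marrow, had 276 UMIs in granulocytes (684 CPM), 59.9-fold over the other populations (38.4 to 98.3). These 276 UMIs lay in 17 of 96 wells. The wells with a Ccr2 UMI held 26.7% of all granulocyte UMIs but 6 of 288 UMIs of Cxcr2 (2.08%), 1 of 100 of Fpr1 and 2 of 54 of C5ar1. Their share was 29 of 293 for Fpr2 (9.9%), 13 of 133 for Ccr1 (9.77%) and 22 of 111 for Cxcr4 (19.8%). In CPM, Cxcr2 stood at 55.6 in these wells and 954 in the other 79, Fpr1 at 9.27 and 335, Fpr2 at 269 and 893, and Cxcr4 at 204 and 301. Of the 22 Cxcr4 UMIs in the wells with Ccr2, 13 came from 1 well, I13, so the Cxcr4 level there rests largely on 1 cell. The use of Ccr2 to divide wells was chosen after its values were seen, and wells without a UMI of it may still express it. All 5 receptors were called in granulocytes without these 17 wells as well.

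Index fluorescence divided the granulocytes by a measure that owes nothing to the counts. The 96 wells were split at the median of Gr1, an epitope of the neutrophil protein Ly6G that some antibodies share with Ly6C of monocytes, into 48 bright and 48 dim wells. The clone of this antibody was not given in the sources used. Cxcr2 had 206 UMIs in bright and 82 in dim wells, 1252 against 343 CPM, a ratio of 3.65 (2.81 to 4.77). Ccr1 had 94 and 39 UMIs, a ratio of 3.5 (2.39 to 5.23), and Fpr1 had 69 and 31, a ratio of 3.23 (2.09 to 5.11). C5ar1 had 35 and 19 UMIs, a ratio of 2.68 (1.49 to 4.95). The ratio was lower for Fpr2, 1.82 (1.44 to 2.31, 163 and 130 UMIs), and for Cxcr4, 1.65 (1.12 to 2.44, 59 and 52 UMIs), whose interval held 1 between outer tertiles of Gr1 (1.55, 0.971 to 2.46). S1pr4, with 16 and 17 UMIs, had a ratio of 1.37 (0.647 to 2.88) and did not differ beyond counting error.

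Thus 6 of the 7 receptors with 10 or more UMIs in granulocytes had an interval above 1, against 8.6% of 4662 genes, whose median log2 ratio was -0.25. The bright wells were the shallower ones, with a median of 3094 UMIs against 4712. After thinning to 1000 UMIs, Cxcr2 was present in 68% of bright and 29.3% of dim wells. The 4 plate rows of granulocytes ranged from 395 to 1042 CPM for Cxcr2. Within them the bright wells were higher in 4 of 4 rows for each of the 6 receptors, at ratios of 1.6 to 7.08 for Cxcr2. Some row ratios were close to 1, at 1.03 for Fpr1 (10 and 9 UMIs) and 1.11 for Cxcr4 (17 and 19 UMIs).

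Other transcripts moved with Gr1 too. The 4 monocyte markers summed to 122 CPM in bright and 1439 CPM in dim wells, with a UMI of all 4 on both sides and at most 0.0871% and 0.578% of the UMIs of a well. Of the 17 wells with a Ccr2 UMI, 16 were dim. Plasmacytoid dendritic cell markers had 6 UMIs in bright and 43 in dim wells, a ratio of 0.203 (0.0705 to 0.478). These UMIs lay in 6 bright and 12 dim wells, at most 0.0436% and 0.682% of the UMIs of a well. Among the granulocyte markers, Retnlg, a gene of late neutrophils, was higher in bright wells by 4 (3.73 to 4.29) and Mmp8 by 2.65 (2.37 to 2.96). The granule genes Camp, at 0.474 (0.439 to 0.511), Ngp and Ltf were lower. S100a8, S100a9 and Lcn2 differed less, at 1.29, 1.38 and 0.922. Without the 17 wells, the ratio was 2.17 for Cxcr2 (1.66 to 2.86), 2.68 for Ccr1 (1.74 to 4.25), 1.88 for Fpr1 (1.21 to 2.98) and 1.6 for Cxcr4 (1.02 to 2.58). It was 1.3 for Fpr2, with an interval that began at 1, and 1.68 for C5ar1, whose interval then held 1 (0.916 to 3.2). The part of the granule genes and of the plasmacytoid markers in these ratios was not tested.

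**Figure D3:**
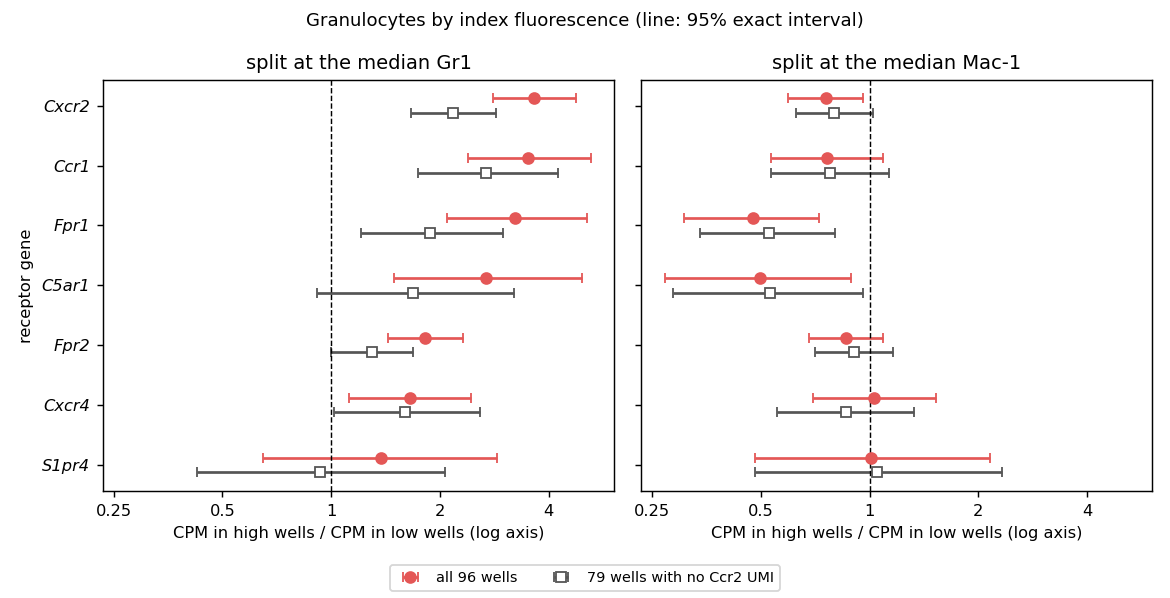
Ratio of CPM in granulocyte wells above the median of Gr1 (left) or Mac-1 (right) to CPM in the other wells (x axis, log scale) for 7 receptors (y axis). Filled circles are all 96 wells, open squares the 79 wells with no Ccr2 UMI, and lines 95% exact intervals. On the left, 6 of 7 circles lie right of 1 beyond their interval, from 1.65 for Cxcr4 to 3.65 for Cxcr2.

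**Figure D4:**
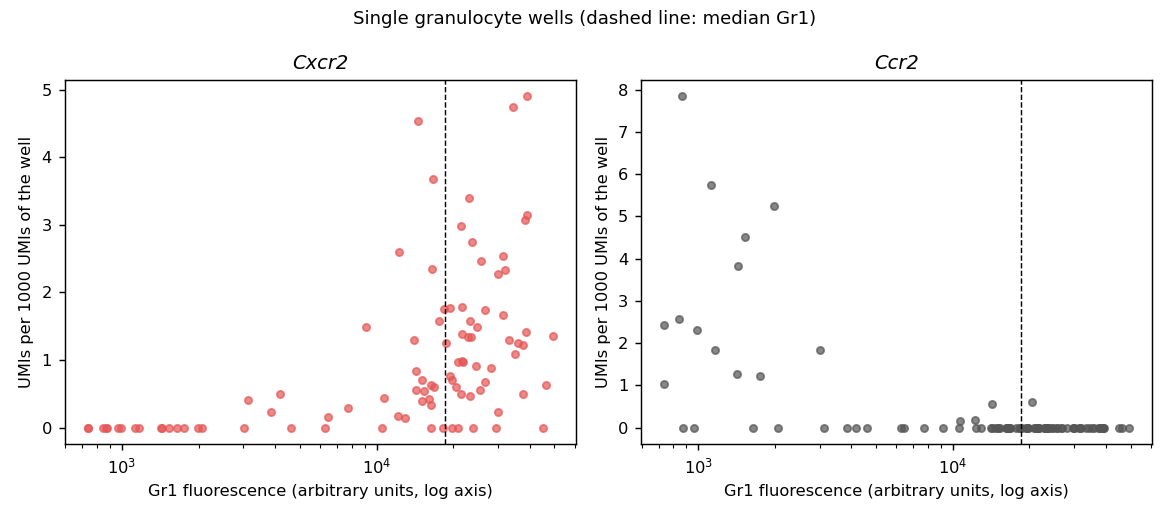
UMIs of Cxcr2 (left) and Ccr2 (right) per 1000 UMIs of a well (y axis) against Gr1 fluorescence (x axis, arbitrary units, log scale) in 94 granulocyte wells of 1000 or more UMIs. Each point is a cell and the dashed line is the median Gr1. The higher Cxcr2 values lie among the brighter cells, and the higher Ccr2 values among the dimmest.

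By Mac-1, the integrin subunit in the same gate, the receptors differed less and in the other direction. Fpr1 had 36 UMIs in Mac-1 bright and 64 in dim wells, a ratio of 0.476 (0.307 to 0.726), and C5ar1 had 20 and 34, a ratio of 0.497 (0.271 to 0.889). Cxcr2 followed at 0.757 (0.596 to 0.96, 136 and 152 UMIs), but its interval held 1 without the 17 wells with a Ccr2 UMI (0.798, 0.627 to 1.02). These were 3 of 7 receptors with an interval below 1, against 5.36% of 4662 genes. Within plate rows, C5ar1 was lower in Mac-1 bright wells in 4 of 4 rows, but Fpr1 and Cxcr2 were higher in 1 of 4. Monocyte markers stood at 864 and 947 CPM, a ratio of 0.913 (0.739 to 1.13), whereas Ccr2 had 167 and 109 UMIs, a ratio of 1.3 (1.01 to 1.66). Plasmacytoid dendritic cell markers had 9 and 40 UMIs, a ratio of 0.19 (0.0812 to 0.398). They lay in 7 bright and 11 dim wells, at most 0.0436% and 0.682% of the UMIs of a well. Among the granulocyte markers, Camp was 2.74 times as high in Mac-1 bright wells (2.54 to 2.96), and Ngp, Ltf and Lcn2 were also higher. Retnlg was lower at 0.401 and Mmp8 at 0.536, while S100a8 and S100a9 differed little, at 1.08 and 1.03. The part of these genes was not tested.

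Ccr7 (ENSMUSG00000037944, chr11:99144196-99155077, minus strand) guides maturing thymocytes into the medulla and lymphocytes into lymph nodes. It had 73 UMIs in T lymphocytes, 7 in B lymphocytes, 3 in LSK cells, 1 in granulocytes and 0 in erythroblasts. The T lymphocyte level was 364 CPM (286 to 458), with a UMI in 33 of 43 wells, and was 67.6-fold over the others (35.6 to 141). B lymphocytes were next at 51.5 CPM. T lymphocytes stood 7.07-fold above them (3.26 to 18.2), and they stood 14.3-fold above LSK cells (3.27 to 86). Each of the 7 UMIs of B lymphocytes was in a well of its own, none in well A8, and the carry-over level from T lymphocyte markers was 0.921. The other 3 populations did not differ beyond counting error. The interval of erythroblasts, at 0, reached 5.53 CPM.

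S1pr1 (ENSMUSG00000045092, chr3:115710433-115715072, minus strand) was counted in both lymphocyte populations. It had 35 UMIs in T lymphocytes (175 CPM), 17 in B lymphocytes (125 CPM), 18 in LSK cells (21.6 CPM), 2 in granulocytes (4.96 CPM) and 2 in erythroblasts (3 CPM). The 2 lymphocyte levels did not differ beyond counting error, with a ratio of 1.4 (0.761 to 2.66), and B lymphocytes were 5.81-fold above LSK cells (2.81 to 11.9). The receptor was called in T lymphocytes at 9.14-fold (5.62 to 14.8) and in B lymphocytes at 4.62-fold (2.52 to 8.06), and the latter interval holds the 4-fold limit. In T lymphocytes the UMIs lay in 15 of 43 wells, with up to 6 in a well. LSK cells held S1pr1 in 15 of 95 wells, above the 1.77 UMIs of carry-over.

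Among thymic T lymphocytes 11 wells had both Ccr7 and S1pr1, 22 Ccr7 alone, 4 S1pr1 alone and 6 neither. Wells split at the median CD3 fluorescence gave 41 Ccr7 UMIs in the 21 bright and 32 in the 22 dim wells, a ratio of 1.43 (0.881 to 2.35). The ratio was 0.942 for S1pr1 (0.453 to 1.93) and 0.915 for S1pr4 (0.335 to 2.43). None of these intervals left out 1, although Ccr7 was higher in the bright wells of both plate rows.

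S1pr4 (ENSMUSG00000044199, chr10:81497747-81500132, minus strand), a receptor of blood cells for the same lipid, was the one spread over all populations but erythroblasts. It had 18 UMIs in B lymphocytes (133 CPM), 20 in T lymphocytes (99.8 CPM), 33 in granulocytes (81.8 CPM), 35 in LSK cells (41.9 CPM) and 1 in erythroblasts (1.5 CPM). B and T lymphocytes and T lymphocytes and granulocytes did not differ beyond counting error. Granulocytes were 1.95-fold above LSK cells (1.17 to 3.23), and LSK cells 28-fold above erythroblasts (4.7 to 1135). With scran and TMM factors the first ratio was 3.46 and 3.33, and the second 13.8 and 15.4. It was called in no population. UMIs were thinly spread, with at most 3 in a well.

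Cxcr4 (ENSMUSG00000045382, chr1:128588199-128592293, minus strand), the receptor for the marrow chemokine Cxcl12, was counted in all 5 populations, and outside granulocytes above its carry-over level of 1.33 to 3.47 UMIs. It had 111 UMIs in granulocytes (275 CPM, 226 to 331), 37 in B lymphocytes (272 CPM, 192 to 376), 121 in erythroblasts (181 CPM, 151 to 217), 70 in LSK cells (83.9 CPM, 65.4 to 106) and 9 in T lymphocytes (44.9 CPM, 20.5 to 85.3). Granulocytes and B lymphocytes did not differ beyond counting error, at a ratio of 1.01 (0.69 to 1.51). B lymphocytes were 1.5-fold above erythroblasts (1.01 to 2.19), but the order turned to 0.912 with scran size factors and 0.889 with TMM factors. Erythroblasts were 2.16-fold above LSK cells (1.6 to 2.95), and 4.37-fold with scran and 3.93-fold with TMM factors. LSK cells exceeded T lymphocytes by 1.87, within counting error (0.929 to 4.25). After thinning to 1000 UMIs, a Cxcr4 UMI was expected in 25.7% of B lymphocyte, 24% of granulocyte, 17.7% of erythroblast, 8.31% of LSK and 4.52% of T lymphocyte wells.

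Within B lymphocytes Cxcr4 was lower where B220, a marker that rises as B cells mature, was bright. The 22 bright wells held 11 UMIs (156 CPM) and the 22 dim wells 26 (398 CPM), a ratio of 0.392 (0.175 to 0.821). Between outer tertiles of B220 the ratio was 0.438 and its interval held 1 (0.14 to 1.18). S1pr1 went the other way with 13 and 4 UMIs, 184 and 61.3 CPM, a ratio of 3.01 whose interval held 1 (0.93 to 12.7). Cxcr4 was lower and S1pr1 higher in the bright wells of both plate rows. Without the wells A8 and B2 the ratios were 0.394 (0.175 to 0.83) for Cxcr4 and 2.69 (0.814 to 11.4) for S1pr1. Of the 44 wells, 3 held both, 19 Cxcr4 alone, 8 S1pr1 alone and 14 neither. Most wells with either gene had only 1 UMI of it, 12 of 22 for Cxcr4 and 7 of 11 for S1pr1. Wells without a UMI therefore cannot be read as cells without the receptor, and whether the 2 genes avoid each other was not tested. Granulocyte markers were lower in the bright wells too, at 2680 against 11027 CPM, and at 2638 against 3308 CPM without wells A8 and B2. Erythroblast markers were lower at 0.641 (0.602 to 0.684). Of the 3 plasmacytoid dendritic cell markers, Siglech and Bst2 had no UMI in B lymphocytes. The third, Tcf4, was higher in bright wells with 30 against 10 UMIs, a ratio of 2.78 (1.32 to 6.37). The part of these markers was not tested. By FSC-A no receptor of B lymphocytes had an interval that left out 1.

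Erythroblasts, split by CD44, which falls as these cells mature, had 62 Cxcr4 UMIs in the 48 bright and 59 in the 48 dim wells, 153 against 225 CPM, a ratio of 0.68 (0.468 to 0.988). This split was added after the first values were seen. The erythroblast markers, mostly haemoglobin, were also lower in CD44 bright wells, at 186756 against 339333 CPM, and the median log2 ratio of all genes was 0.37. In LSK cells Cxcr4 differed neither by c-Kit, 0.805 (0.486 to 1.32), nor by Sca-1, 1.12 (0.68 to 1.84), beyond counting error. Fpr2 had 11 UMIs in Sca-1 bright and 1 in dim LSK wells, a ratio of 12.3 (1.79 to 530), but 5 of them lay in well K6, without which the ratio was 6.97 and its interval held 1 (0.846 to 321). Of 34 comparisons of a receptor with a fluorescence, 11 had an interval that left out 1, and of the 2 added for erythroblasts, 1 did. Of the 11, 6 were by Gr1 and 3 by Mac-1 in granulocytes, where 8.6% and 5.36% of all genes passed in the same direction. For the other splits no share over all genes was computed.

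Other genes of the same pathways were followed as lists, which, like the receptors, were chosen with earlier results of these data known. Of 18 other chemokine receptors 10 were measured and 4 had 10 or more UMIs. Cxcr5, the follicle receptor of B cells, was called in B lymphocytes with 10 of 13 UMIs, Ccr2 in granulocytes, and Ackr1, a scavenging receptor of red cells, in erythroblasts with 106 UMIs (159 CPM, 9.63-fold, 6.22 to 15.4). Ccrl2, with 41 UMIs, was called nowhere. So 1 of the 4 was called in B lymphocytes, granulocytes and erythroblasts each, against 2.57%, 5.66% and 5.58% of all genes. The list median log2 ratio in granulocytes was -0.64, beside -0.48 for all genes.

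Of 14 other chemoattractant receptors 7 were measured and 4 had 10 or more UMIs, and 3 of the 4 were called in granulocytes, where 5.66% of all genes were. These were the leukotriene B4 receptor Ltb4r1 (98 UMIs, 243 CPM, 49.6-fold, 25.1 to 112), the platelet-activating factor receptor Ptafr (45 UMIs, 112 CPM, 8.91-fold, 5.28 to 15.4) and the second C5a receptor C5ar2 (14 UMIs, 34.7 CPM). Gpr183, the oxysterol receptor, was called in T lymphocytes with 18 UMIs (89.8 CPM, 15.3-fold, 6.96 to 34.8). Cysltr1, with 7 UMIs, all in granulocytes, was under the limit of 10. The list median log2 ratio in granulocytes was 3.78.

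Genes that make, move or sense sphingosine 1-phosphate were followed as a further list. Of 11 listed, 10 were measured and 6 had 10 or more UMIs. Of these 6, 2 were called in erythroblasts, 1 in LSK cells and 1 in T lymphocytes. The shares over all genes were 5.58%, 12.2% and 4.17%, and the counts in LSK cells and T lymphocytes rest on 1 gene each. Erythroblasts, where S1pr4 and S1pr1 were at 3 CPM or less, held 46 of 49 UMIs of the kinase Sphk1 (69 CPM, 36.2-fold, 11.6 to 182) and 55 of 64 of the exporter Mfsd2b (82.5 CPM, 14.4-fold, 7.08 to 33.2). The transporter Spns2 was called in LSK cells with 298 of 322 UMIs (357 CPM, 20.9-fold, 13.8 to 33.2). Cd69, which takes S1pr1 off the cell surface, was called in T lymphocytes with 19 UMIs (94.8 CPM, 6.24-fold, 3.33 to 11.4). The lyase Sgpl1 (117 UMIs) and the phosphatase Sgpp1 (72 UMIs) were called nowhere. Median log2 ratios of the list lay between -1.59 in granulocytes and -0.08 in B lymphocytes.

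Of 18 listed ligands 12 were measured and 8 had 10 or more UMIs. Granulocytes were called for Anxa1 (902 UMIs, 2235 CPM, 38.4-fold) and Camp (3691 UMIs, 9147 CPM, 89.4-fold), whose products include Fpr2 ligands, and for the chemokine Ccl6 (388 UMIs, 962 CPM, 39.3-fold). Camp is also one of the granulocyte markers. In granulocytes 3 of the 8 were called, where 5.66% of all genes were. LSK cells were called for Ccl3, Ccl4 and Pf4, with 17, 23 and 15 UMIs, where 12.2% of all genes were called. Ccl9 (202 UMIs) was spread over granulocytes, at 193 CPM, and LSK cells, at 133 CPM, and Ccl25 (36 UMIs) was called nowhere. The list median log2 ratio was 0.89 in granulocytes, beside -0.48 for all genes, and 0.57 in LSK cells, beside 0.61.

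Of 27 genes of receptor signalling and desensitisation 26 were measured and 25 had 10 or more UMIs, and 5 were called in granulocytes, 3 in LSK cells, 1 in T lymphocytes and none in B lymphocytes or erythroblasts. The shares over all genes were 5.66% in granulocytes, 12.2% in LSK cells and 4.17% in T lymphocytes, and the counts in LSK cells and T lymphocytes were near theirs. In granulocytes these were the arrestin Arrb2 (508 CPM, 8.89-fold, 6.99 to 11.4), the regulators Rgs2 (563 CPM, 5.5-fold) and Rgs14 (119 CPM, 8.41-fold), the kinase subunit Pik3r5 (91.7 CPM, beside 99.8 CPM in T lymphocytes, where it missed the limit at 3.84-fold) and the GTPase Rac2 (1383 CPM, 4.11-fold, 3.66 to 4.62). In LSK cells these were Grk3 (101 CPM, 11.8-fold), Rgs18 (223 CPM, 4.97-fold) and Rgs1 (10 UMIs), and in T lymphocytes Rgs10 (284 CPM, 11.4-fold, 7.66 to 16.9). The G protein subunits Gnai2 (2575 UMIs) and Gnb2 (457), the actin regulator Coro1a (1739) and the receptor kinase Grk2 (543) were counted in all 5 populations and called in none. The list median log2 ratio was 1.08 in granulocytes and -3.22 in erythroblasts, beside -0.48 and -0.85 for all genes.

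All 7 transcription factors linked to these receptors had 10 or more UMIs. Of them, 3 were called in granulocytes (5.66% of all genes), 2 in B lymphocytes (2.57%) and 2 in T lymphocytes (4.17%). The C/EBP factors Cebpe (61 of 62 UMIs, 151 CPM), Cebpd (93 UMIs, 230 CPM, 38.5-fold, 20.6 to 79.8) and Cebpb (60 UMIs, 149 CPM, 15.2-fold, 8.84 to 27.3) were called in granulocytes. Foxo1 was called in B lymphocytes (420 CPM) and in T lymphocytes (264 CPM). Klf2, which switches on S1pr1, was called in B lymphocytes (324 CPM, 5.41-fold, 3.75 to 7.69). It stood at 230 CPM in T lymphocytes, 164 CPM in granulocytes and 10.8 CPM in LSK cells. The profile of S1pr1 differed in granulocytes, where it was at 4.96 CPM. Satb1 was called in T lymphocytes (1113 CPM, 17.3-fold, 13.9 to 21.7), and Klf13 (616 UMIs) nowhere. The list median log2 ratio was 1.53 in granulocytes, beside -0.48, and -3.8 in erythroblasts, beside -0.85 for all genes.

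The 3 genes nearest each receptor among 3905 genes of 100 or more UMIs were found by Euclidean distance of log2(CPM + 10) over the 5 populations. The smallest distance was 0.16, between Fpr1 and Ltb4r1, and Fpr1 was followed by Slpi and Tgfbi. Cxcr2 was nearest to Lgals3 (0.64), Hp and Lilr4b, Ccr1 to Cd300lf (0.8), Trpm2 and Hdc, and C5ar1 to Fpr1 (0.94), Ltb4r1 and Slpi. Fpr2 was nearest to Chil1 (0.89), Ccr2 and Mcemp1. Of the 17 granulocyte wells with a Ccr2 UMI, 11 also held Fpr2, but its level there was 269 CPM against 893 in the other wells. Ccr7 was nearest to Rasgrp1 (1), Ifi213 and Cd2, and S1pr1 to Evl (1.33), Pecam1 and Rasgrp1. S1pr4 was nearest to Eif4g3 (0.62), Spg21 and Ctsc, and Cxcr4 to Cdc42ep3 (0.99), Fis1 and Far1. Profiles of 5 points say little of single cells, and Ltb4r1, unlike Fpr1, had a Gr1 bright to dim ratio of 0.807 (0.518 to 1.24).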

How the data were processed

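Single cells of 5 sorted populations were measured by CEL-seq2. Values deposited by the authors are raw UMI counts, a whole number for each gene in each well. Per the paper's methods, scPipe aligns reads (Rsubread by default), assigns them to exons, demultiplexes designed barcodes and collapses UMIs, whereas the sources used here do not give the aligner version, genome build, annotation or use of strand. For read 1 the labels describe the barcode and UMI in 2 ways that contradict each other, and no correction was made for this. Each column was assigned by its well name, and 9 without a sample were left out. GENCODE M21 (GRCm38) gave symbols and coordinates, the authors may have used another build, and 74 of 19829 mouse gene IDs had no symbol.

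The 10 receptors, the gene lists and the markers were chosen with earlier results of these data known. Counts were summed over all 374 labelled wells per population, with no well filtered and no doublet caller run, and CPM was computed on UMIs on mouse genes. A population is 1 sample, so no p-value or standard error was computed. Intervals are 95% exact Poisson (sums), exact binomial (shares) and exact conditional binomial (ratios) intervals. Calls used 4-fold, a floor of 3 UMIs and 10 UMIs in all wells. That a population must hold more than the floor was added after the first calls were seen, because the floor alone called genes with no UMI. Thinned shares are expected shares after drawing 1000 UMIs per well, leaving out 1 B lymphocyte, 1 T lymphocyte, 2 granulocyte and 1 erythroblast well of lower depth. Wells were split at the population median of the fluorescence in the labels. The genes named are the receptors, the 5 most counted and all called genes of each list, and the 3 genes most like each receptor, except 1 gene that is not reported here.

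The call and interval functions were tested on simulated data. Alternatives used scran 1.30.0 size factors, edgeR 4.0.16 TMM factors, other totals, well means, wells, floors, thresholds and splits. R 4.3.3 and Python 3.11.15 with scipy 1.17.1, numpy 2.4.6, pandas 2.3.3 and matplotlib 3.10.9 were used.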

Additional observations from a re-analysis of the deposited data

How the results depend on the processing

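The count of 5 receptors called in granulocytes and of none in erythroblasts and LSK cells was the same under all 12 alternatives tried, except that a 2-fold threshold gave 7 in granulocytes. The count in B lymphocytes, 1, became 0 with TMM factors, 0 over the highest other population and 2 at 2-fold, and that in T lymphocytes, 2, became 1 over the highest other population and 3 at 2-fold. Scran and TMM factors moved the median log2 ratio of all genes by up to 0.8, in erythroblasts. The log2 ratio of Cxcr4 in granulocytes over the others, 1.09, became 1.58 with scran size factors and 1.59 with TMM factors, where the median of all genes rose by 0.49 and 0.5, and that of Ccr7 in T lymphocytes, 6.08, became 5.06 as a mean of well CPM. The order of Cxcr4 in B lymphocytes over erythroblasts, 1.5, turned to 0.912 with scran and 0.889 with TMM factors, and stood at 1.34 with an interval that held 1 on totals without Gm42418, haemoglobin and mitochondrial genes. S1pr1 in LSK cells over granulocytes, 4.35, was 2.45 with scran and 2.55 with TMM factors, with intervals that held 1, and no ratio could be formed without the 17 granulocyte wells below, where granulocytes had 0 UMIs.

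With outer tertiles in place of a split at the median, intervals came to hold 1 for Cxcr4 by B220 in B lymphocytes (0.438), Cxcr4 by Gr1 in granulocytes (1.55) and Fpr2 by Sca-1 in LSK cells (3.35), left out 1 for Fpr2 by Mac-1 in granulocytes (0.693), and Fpr2 by CD3 in T lymphocytes fell to 0. By Gr1 the ratio rose to 7.93 for Cxcr2, 7.65 for Fpr1, 5.56 for Ccr1 and 4.6 for C5ar1. Without the 17 granulocyte wells with a Ccr2 UMI, an alternative chosen after seeing the data, C5ar1 by Gr1 (1.68) and Cxcr2 by Mac-1 (0.798) lost an interval that left out 1, and Cxcr2 by Gr1 moved from 3.65 to 2.17. The causes of these changes were not tested. No paired analysis was possible because each population is 1 sample and the well numbers are plate positions. B and T lymphocytes had the fewest wells, 44 and 43, and the fewest UMIs, and with 1 animal on 1 plate no spread between animals can be given.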
